A study of Mus musculus with 2 samples.

Results

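The Mir34 and Mir449 genes form 1 microRNA (miRNA) family, which in the mouse is made at 3 places in the genome. Mir34a stands alone, Mir34b and Mir34c form a pair, and Mir449a, Mir449b and Mir449c form a trio. The members were taken by name: all 6 had a row, out of 1973 miRNA genes in the deposited tables. They were chosen by their sense counts in these same libraries, since Mir449a had stood out between the hearts. Their levels and the differences between the hearts are therefore given as a description, without tests.

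The samples were hearts of newborn mice of strain B6NCrl at postnatal day 0, measured by small RNA sequencing. Replicate 2 was the single heart of pup 3 and replicate 1 the single heart of pup 2, both from pregnant female 1, and no treatment or mutation is named. Sex was not collected. Total RNA with inserts under 30 nt was sequenced, and miRNA genes received 3487183 sense counts in replicate 2 and 2323450 in replicate 1. Levels are given as CPM, the sense count of a gene per 1000000 sense counts on all miRNA genes. There was 1 library per heart, so pup, dissection and library preparation cannot be told apart, and in whole tissue neither can the number of cells of a type and the RNA per cell.

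A miRNA guides the silencing machinery to messenger RNAs that pair with its seed, bases 2 to 8 from its 5′ end. Members that share a seed can therefore bind the same sites. Mir34a is expressed in many tissues. It is a well-known transcriptional target of the tumour suppressor p53, as are Mir34b and Mir34c. Mir34b, Mir34c and the Mir449 genes are known from multiciliated cells, the cells with many motile cilia that line the airways, the brain ventricles and the oviduct, and from the testis. In those cells they act in the assembly of basal bodies from which cilia grow. The heart muscle itself is not known for multiciliated cells.

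The mature sequences show what makes the genes a family. The seed is in capitals, and the sequences are those of RefSeq on GRCm38.p6, which lists 9 mature miRNAs for the members, 4 of them from the 5′ arm of the precursor.
miR-34a-5p: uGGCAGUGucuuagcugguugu
miR-34b-5p: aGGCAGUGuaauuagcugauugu
miR-449a-5p: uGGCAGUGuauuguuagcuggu
miR-449c-5p: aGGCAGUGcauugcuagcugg

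These 4 carried the same seed, GGCAGUG, and no other of the 1738 mature mouse miRNAs in the table did. The sequences of miR-34c-5p and of Mir449b were not used here, so this says nothing of their seeds. Past the seed they also shared the run uagcug, which began at base 12 in miR-34a-5p, at base 13 in miR-34b-5p and at base 15 in miR-449a-5p and miR-449c-5p. miR-449a-5p was identical to miR-34a-5p over its first 9 bases, and further on both carried uuagcuggu. With the bases set side by side from the 5′ end and no gap, miR-449a-5p matched miR-34a-5p at 15 of 22 positions and miR-449c-5p at 18 of 21.

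The 3′ arms, shown because the counts of a gene include both arms, did not share that seed.
miR-34b-3p: aAUCACUAacuccacugccauc
miR-34c-3p: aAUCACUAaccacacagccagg
miR-34a-3p: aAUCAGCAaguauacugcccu
miR-449a-3p: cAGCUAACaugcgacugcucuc
miR-449c-3p: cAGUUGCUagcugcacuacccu

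miR-34b-3p and miR-34c-3p had 1 seed in common, AUCACUA, which no other mature miRNA in the table carried. The 3′ seeds of Mir34a, Mir449a and Mir449c each occurred once in the table. The precursors of the 2 members with the highest mean level are shown next, with the 5′ and 3′ mature arms in capitals.
Mir34a: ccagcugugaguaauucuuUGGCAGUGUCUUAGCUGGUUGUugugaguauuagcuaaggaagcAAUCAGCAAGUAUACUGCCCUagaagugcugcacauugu
Mir449a: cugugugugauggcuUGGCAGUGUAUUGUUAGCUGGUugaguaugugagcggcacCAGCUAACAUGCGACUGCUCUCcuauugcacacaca

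Among the 5 member precursors in the table, the longest run shared between 2 of them was 11 nt. The longest run shared with any of the 1005 precursors was 14 nt, between Mir449a and Mir679, and 11 nt for the other 4. Mir449b and sites outside these precursors were not part of the comparison. Over the whole libraries, 37.1% of reads in replicate 2 and 36.6% in replicate 1 were placed at several sites and assigned to no gene, and how many of them came from this family was not tested.

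The genes lie on 3 chromosomes of GRCm38. Mir34a (ENSMUSG00000065493.1) is at chr4:150068454-150068555 on the plus strand, and the end of its precursor overlaps an exon of the unclassified transcript Gm37795. Mir34c (ENSMUSG00000065587.1, chr9:51103034-51103110) and Mir34b (ENSMUSG00000065492.1, chr9:51103562-51103645) are on the minus strand, 451 bases apart. Both lie in an intron of Btg4, a gene on the opposite strand. Mir449c (ENSMUSG00000076146.1, chr13:113035983-113036091), Mir449b (ENSMUSG00000078027.1, chr13:113037419-113037498) and Mir449a (ENSMUSG00000065575.1, chr13:113037534-113037624) lie on the plus strand in an intron of Cdc20b, on the same strand as that gene.

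The Mir449 trio spans 1642 bases, with 1327 bases between Mir449c and Mir449b and 35 bases between Mir449b and Mir449a. The host Cdc20b and its upstream neighbours Mcidas and Ccno are known for the differentiation of multiciliated cells. Messenger RNAs of these genes were not measured here.

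**Figure D1:**
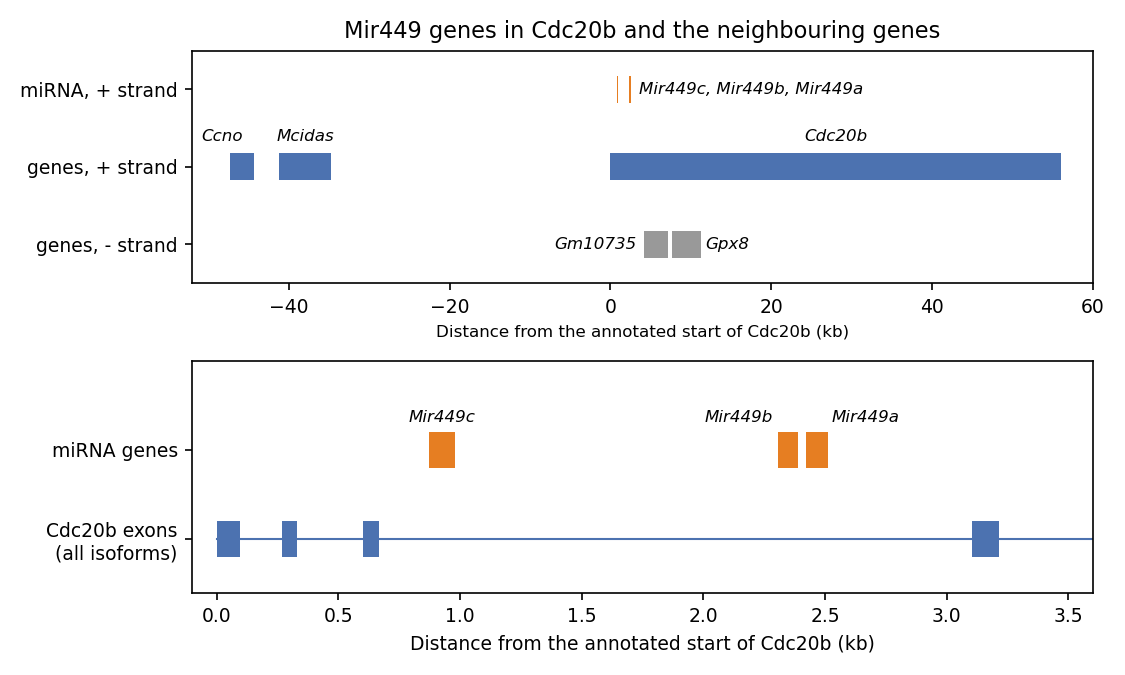
Map of the Mir449 locus, with the distance from the annotated start of Cdc20b in kb on the x axis. The upper panel shows genes by strand and the lower panel enlarges the first exons of Cdc20b (all isoforms pooled); the 3 Mir449 genes (orange) lie between exons, and Mir449b and Mir449a are 35 bases apart.

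Mir449a was the member with the highest count in the heart of pup 3 and a minor one in that of pup 2. It had 2589 counts in replicate 2 and 83 in replicate 1, or 742 CPM (exact Clopper-Pearson 95% interval 714 to 772) against 35.7 CPM (28.5 to 44.3). It ranked 82 by count among all miRNA genes in replicate 2 and 203 in replicate 1. The level in pup 3 was 20.8-fold that in pup 2, with a counting interval of 16.7 to 26.2.

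Intervals here and below cover counting error only. The reads carry no molecular identifiers and are not independent molecules, and no interval covers the difference between animals.

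Mir34c had 1483 counts in replicate 2 and 414 in replicate 1, or 425 CPM (404 to 447) against 178 CPM (161 to 196). That made 2.39-fold, with a counting interval of 2.14 to 2.67. Its neighbour Mir34b was far less abundant in both hearts, with 57 counts in replicate 2 and 16 in replicate 1. These were 16.3 CPM (12.4 to 21.2) and 6.89 CPM (3.94 to 11.2), or 2.37-fold (1.34 to 4.43). The pair thus had close to the same ratio between the hearts, although Mir34b is known by few counts.

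Mir34a had almost the same level in both hearts. It had 1441 counts in replicate 2 and 918 in replicate 1, which were 413 CPM (392 to 435) and 395 CPM (370 to 422). Its ratio was 1.05-fold, with a counting interval of 0.962 to 1.14 that includes equality, and it ranked 101 by count in both libraries.

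Mir449b and Mir449c were at the limit of detection. Mir449b had 4 counts in replicate 2 and Mir449c had 3, and both had 0 in replicate 1. In CPM these were 1.15 and 0.860 in replicate 2, while a count of 0 in replicate 1 allows up to 1.29 CPM, so no difference between the hearts was detectable for either gene at this depth.

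**Figure D2:**
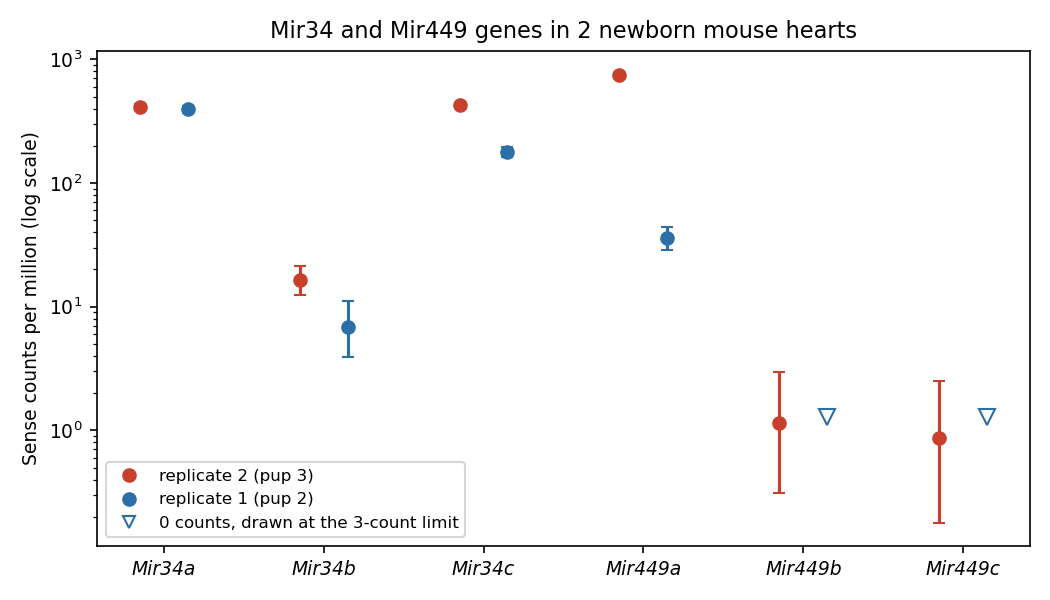
Level of each member in CPM of sense counts (log axis) in replicate 2 (red) and replicate 1 (blue), with exact 95% intervals for counting error; open triangles stand for 0 counts and are drawn at 1.29 CPM, the level that 3 counts would give. The points of Mir34a nearly coincide, those of Mir34b and Mir34c are set apart by about the same distance, and those of Mir449a are the farthest apart.

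Over both hearts, Mir34a averaged 404 ± 12.8 CPM, Mir449a 389 ± 500 CPM and Mir34c 302 ± 175 CPM (SD, n = 2 for each). The means of these 3 lay closer together than the spread between hearts of Mir449a or Mir34c, so they have no firm order. Mir34b, at 11.6 ± 6.69 CPM, was below all 3 in each heart, and Mir449b (0.574 ± 0.811 CPM) and Mir449c (0.430 ± 0.608 CPM) were lowest. Within replicate 2 the intervals of Mir34c and Mir34a overlapped, whereas within replicate 1 those of Mir34a, Mir34c, Mir449a and Mir34b were all separate. How many reads a miRNA yields per molecule was not measured, and these orders are of read counts.

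The 6 genes together held 0.160% of sense counts in replicate 2 (0.156% to 0.164%) and 0.0616% in replicate 1 (0.0584% to 0.0649%), or 0.111% ± 0.0695 (SD, n = 2). The ratio of the sums was 2.60-fold (2.45 to 2.75). Without Mir449a it was 1.48-fold (1.38 to 1.58), on 0.0857% in replicate 2 and 0.0580% in replicate 1. Of the 983 CPM by which the sum was higher in pup 3, Mir449a made up 71.9%, Mir34c 25.1% and Mir34a 1.84%.

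The make-up of the family therefore differed between the hearts. Mir449a took 46.4% of the family's 5577 counts in replicate 2 (45.1% to 47.7%) and 5.80% of 1431 counts in replicate 1 (4.65% to 7.14%). Mir34a took 25.8% in replicate 2 (24.7% to 27.0%) and 64.2% in replicate 1 (61.6% to 66.6%). The share of Mir34c was close to even, at 26.6% in replicate 2 (25.4% to 27.8%) and 28.9% in replicate 1 (26.6% to 31.4%), with overlapping intervals.

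**Figure D3:**
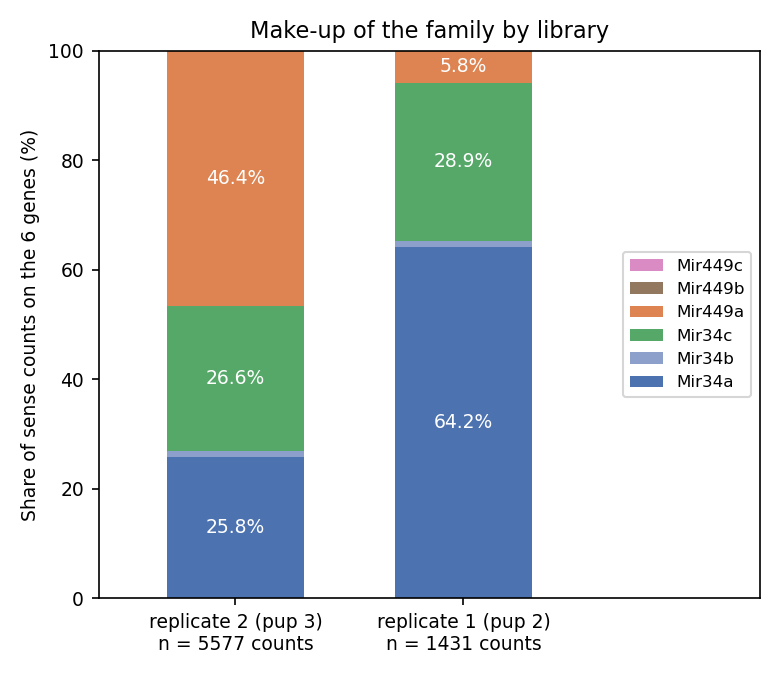
Share of the family's sense counts held by each gene (y axis, percent of all counts on the 6 genes) in replicate 2 with 5577 counts and replicate 1 with 1431 counts. Mir449a fills 46.4% of the bar of replicate 2 and 5.80% of that of replicate 1, Mir34a 25.8% and 64.2%; Mir449b and Mir449c are too small to see.

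Ratios between members within a library need no scaling between libraries, and they separated the 3 loci. Mir34b over Mir34c, the ratio within the chromosome 9 pair, was 0.0384 in replicate 2 (0.0290 to 0.0501) and 0.0386 in replicate 1 (0.0219 to 0.0635). Mir34a over Mir34c was 0.972 in replicate 2 (0.903 to 1.05) and 2.22 in replicate 1 (1.97 to 2.50). The Mir449 trio over the Mir34b and Mir34c pair was 1.69 in replicate 2 (1.58 to 1.80) and 0.193 in replicate 1 (0.151 to 0.245).

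The pair of neighbours on chromosome 9 thus kept 1 ratio within counting error, while ratios across loci had intervals that did not overlap between the hearts. The multiciliated-cell loci also differed from each other: the Mir449 trio was 20.8-fold higher in pup 3 (16.7 to 26.3) and the Mir34b and Mir34c pair 2.39-fold (2.14 to 2.66). Within the trio nearly all counts were on Mir449a. In replicate 2 Mir449b had 0.00155 counts per count of Mir449a (0.000421 to 0.00396) and Mir449c had 0.00116 (0.000239 to 0.00339). In replicate 1 a count of 0 beside 83 of Mir449a allows a ratio of up to 0.0361 for each, so the shallower library does not show whether these ratios differed.

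Over all miRNA genes, differences between the hearts were as follows. Of 361 genes that reached 2 CPM in at least 1 heart, 8.59% were over 1.5-fold higher in replicate 2 and 5.82% over 1.5-fold lower. On CPM with 1 CPM added, these were 31 and 21 genes. With all reads as the denominator 21 were higher and 3 lower, but the set of genes then also changed. CPM is lower there, so the 2 CPM filter and the 1 CPM pseudocount weigh more. In the family 4 of the 6 members reached 2 CPM, of which 3 (Mir449a, Mir34c and Mir34b) were past 1.5-fold and higher in replicate 2, 0 were past it and lower, and Mir34a was within it. Since the members were picked with this difference known, nothing is read from that count. On the log2 scale with 1 CPM added, the ratio of replicate 2 over replicate 1 was 4.34 for Mir449a, the highest of the 361 genes, 1.25 for Mir34c, 1.14 for Mir34b and 0.06 for Mir34a. The median over the 361 genes was 0.04 and the median size, disregarding sign, 0.18.

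**Figure D4:**
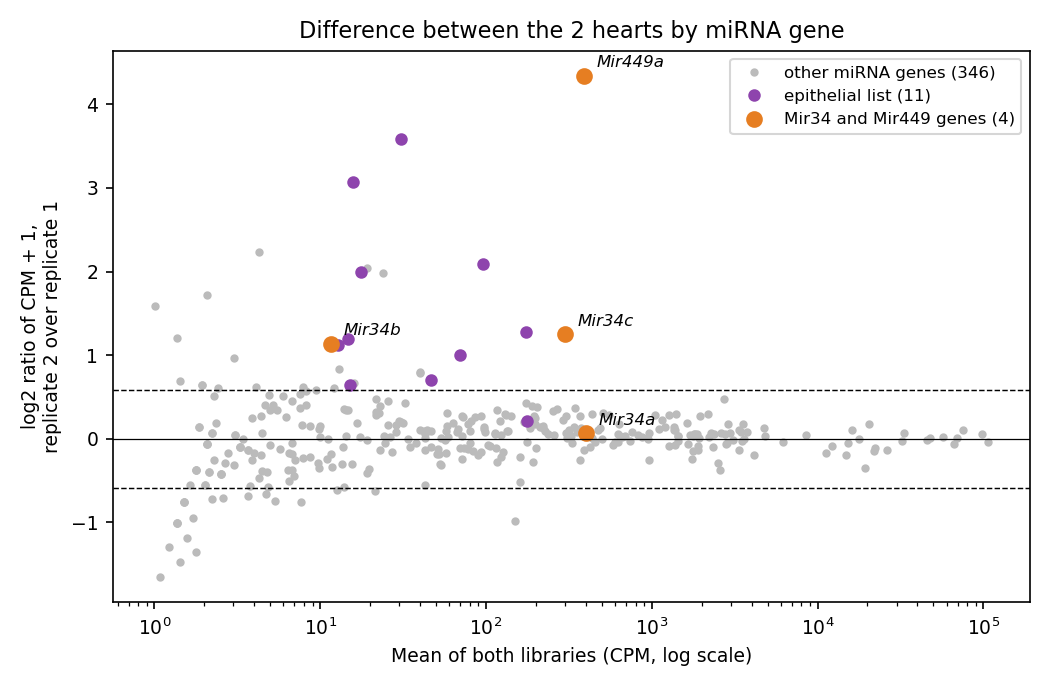
Log2 ratio of replicate 2 over replicate 1 (CPM with 1 CPM added, y axis) against the mean level of both libraries (CPM, log axis) for the 361 miRNA genes that reached 2 CPM in at least 1 heart; dashed lines mark 1.5-fold. Mir449a is at 4.34, Mir34c at 1.25, Mir34b at 1.14 and Mir34a at 0.06, and the genes of the epithelial list (purple) all lie above 0.

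The 11 miRNAs examined next, of epithelia, where multiciliated cells reside, and of sensory and neuroendocrine cells, had the same direction. They are called the epithelial list here. A list of 11 was examined: the miR-200 family (Mir200a, Mir200b, Mir200c, Mir141 and Mir429), which holds cells in an epithelial state, Mir205 and Mir203 of stratified epithelia, Mir375 of neuroendocrine cells, and the Mir182, Mir183 and Mir96 cluster of sensory cells. All 11 reached 2 CPM and all had a log2 ratio above 0, between 0.21 and 3.58, with a median of 1.19 against 0.04 over the 361 genes. Past 1.5-fold, 10 were higher and 0 lower, where 8.59% of the 361 genes were higher and 5.82% lower. This list too was drawn up with earlier results of these libraries known, so nothing is read from that count. The list does not stand for all miRNAs of epithelia. Mir192, Mir194-1, Mir194-2 and Mir215, which it leaves out, had log2 ratios between -0.15 and -0.04.

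The summed level of the list was 917 CPM in replicate 2 and 424 CPM in replicate 1, or 2.17-fold. Its most abundant member was Mir429 in replicate 2 and Mir203 in replicate 1. Mir429 was at 248 CPM in replicate 2 and 102 CPM in replicate 1 (864 and 236 counts). Mir203 had 660 and 380 counts (189 and 164 CPM), a ratio of 1.16-fold that was the only one within 1.5-fold. Mir200c was at 156 CPM in replicate 2 against 35.7 CPM in replicate 1 (543 and 83 counts), and Mir200b at 93.8 against 46.5 CPM (327 and 108 counts). No defining marker in the list was at 0 in either heart. Whether epithelial tissue taken with 1 of the hearts plays a part in the level of Mir449a, Mir34b and Mir34c was not tested.

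Mir449a and the miRNAs of this list did not differ by 1 common factor. The ratio of Mir449a (16.7 to 26.2-fold by counting error) lay above the interval of each of Mir429 (2.11 to 2.83), Mir200c (3.45 to 5.56) and Mir200b (1.62 to 2.53). It overlapped those of Mir375, at 200 and 9 counts in replicates 2 and 1 (14.8-fold, 7.64 to 32.9), and Mir205, at 101 and 6 counts (11.2-fold, 4.98 to 31.3). Mir34c and Mir429 had intervals that overlapped.

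For other miRNAs linked to p53, a regulator of Mir34a, Mir34b and Mir34c, differences between the hearts were small. Of the Mir34 genes, which this list leaves out, Mir34b differed 2.37-fold, Mir34c 2.39-fold and Mir34a 1.05-fold. The list held 9 genes whose transcription or maturation is tied to p53: Mir15a, Mir16-1, Mir107, Mir143, Mir145a, Mir192, Mir194-1, Mir194-2 and Mir215. All 9 reached 2 CPM and 0 were past 1.5-fold in either direction, where 14.4% of the 361 genes were. That percentage depends on low counts: once the mean level had to reach 50 CPM, only 5 higher and 1 lower remained. The 5 were Mir449a, Mir34c, Mir429, Mir200c and Mir200b, all from the family or the epithelial list. The number of genes at that level is not given here, so these counts make no percentage. The list lay above that limit, its lowest mean being 69.6 CPM for Mir194-2. The contrast with 14.4% is therefore not one of like levels, and nothing about p53 is read from it. The log2 ratios of the 9 genes ran from -0.15 to 0.13 with a median of -0.04. The most abundant were Mir143 (100489 CPM in replicate 2 and 96664 in replicate 1), Mir107 (4950 and 4534 CPM), Mir16-1 (2762 and 2888 CPM) and Mir15a (2417 and 2325 CPM). Several of these, such as Mir143 of smooth muscle, have other regulators.

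**Figure D5:**
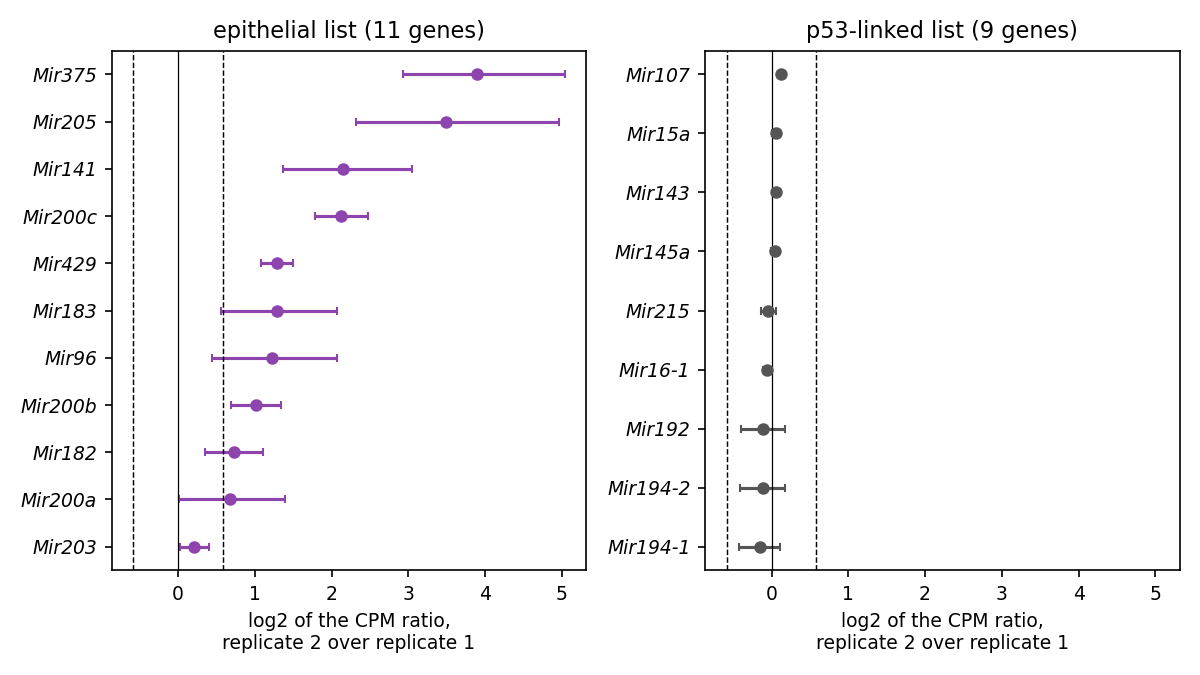
Log2 of the CPM ratio of replicate 2 over replicate 1 (x axis) for the 11 genes of the epithelial list and the 9 genes of the p53-linked list, with exact 95% intervals for counting error; dashed lines mark 1.5-fold. On the left 10 genes lie beyond the upper line, and on the right all 9 lie between the lines.

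Cardiac markers as a sum and the endothelial marker were close to even between the libraries. The cardiac muscle miRNAs Mir208a, Mir208b and Mir499 held 8.89% of sense counts in replicate 2 and 9.01% in replicate 1, and endothelial Mir126a held 10.6% and 10.8%. Mir208a by itself was lower in pup 3, at 13951 CPM in replicate 2 and 15926 CPM in replicate 1 (0.876-fold, 0.864 to 0.888). Mir208b was at 1.01-fold and Mir499 at 1.02-fold. Liver Mir122 was at 47.3 and 53.8 CPM, myeloid Mir223 at 323 and 334 CPM, and erythroid Mir451a at 410.4 and 438.6 CPM in replicates 2 and 1. Erythroid Mir144 was lower in pup 3, at 132 CPM in replicate 2 and 189 CPM in replicate 1 (0.698-fold, 0.611 to 0.798). Mir206 of skeletal muscle was also lower, at 16.6 CPM in replicate 2 and 26.3 CPM in replicate 1. This rests on few counts, 58 and 61 (0.634-fold, 0.434 to 0.923). All 5 neuronal Mir9 and Mir124a genes with a row were at 0 in each library, but as near-identical copies their reads may be among those placed at several sites.

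By the distance of log2 ratios over the 2 libraries, the 5 genes outside the family nearest to Mir449a were Mir375, Mir205, Mir7b, Mir200c and Mir92b, 3 of them on the epithelial list. Even the nearest, Mir375, was 0.76 below it. Mir7b, a miRNA of brain and endocrine cells, had 27 counts in replicate 2 and 2 in replicate 1 (8.99-fold, 2.26 to 78.1), and Mir92b had 110 and 16. The 5 nearest to Mir34c were Mir429, Mir6998, Mir183, Mir96 and Mir200b, within 0.25 of it, 4 of them on the epithelial list. Mir6998 had 8 counts in replicate 2 and 1 in replicate 1 (5.33-fold, 0.715 to 237). With 2 libraries this likeness rests on 1 ratio per gene. The epithelial list holds 11 of the 361 genes and was drawn up with earlier results of these libraries known. Nothing is therefore read from its overlap with these neighbours.

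The opposite strand, which the choice of members did not use, held almost nothing at these genes. Mir34b had 3 counts there in replicate 2, beside 57 on its own strand, and 0 in replicate 1. The other 5 members had 0 in both libraries. Pooled over all miRNA genes, 6.67% of counts in replicate 2 and 6.62% in replicate 1 were on the opposite strand. How many other genes had 0 there was not counted, so this is not shown to be particular to the family. For Mir34b that is the strand of Btg4, and 3 counts are no more than the limit that a count of 0 allows.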

How the data were processed

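The authors deposited raw read counts for each miRNA gene, without normalization: 1 column per strand and their sum. Per the labels, reads were placed on assembly mm10, and the description deposited with each library names GENCODE M4. Aligner, counter, adapter trimming and mismatch settings are not given in the sources used here. The 4 summary rows were kept out of library sizes. Unmapped reads made up 10.5% (replicate 2) and 11.5% (replicate 1), reads placed at several sites 37.1% and 36.6%, and reads on no feature 5.62% and 5.93%.

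CPM came from sense counts. Of 1973 identifiers 1894 matched GENCODE M21 (GRCm38, the assembly of mm10), which gave names and positions. Ratios used 1 CPM as pseudocount where given as log2. Intervals are exact Clopper-Pearson, for ratios conditional on the sum of both counts. For a count of 0, the limit given is that of 3 counts. Genes named are the members, up to 4 of the most abundant in each list, the 5 nearest in ratio to Mir449a and to Mir34c, and tissue markers; Mir375 and Mir205 fall under the third part. No test was made, since 2 libraries of 1 group allow no comparison of conditions. The members and lists were chosen with earlier results of these data known. Scaling alternatives came from edgeR 4.0.16 (TMM) and DESeq2 1.42.0. The code for ratios and intervals was checked on simulated counts that held counting error only. That check does not cover reads that are not independent or the difference between animals.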

Additional observations from a re-analysis of the deposited data

How the results depend on the processing

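The ratios of the members between the hearts kept their direction and their side of 1.5-fold under 6 alternatives each (TMM, DESeq2 size factors, all reads as denominator, both strands, pseudocounts of 0.5 and 5 CPM). The log2 ratio ranged from 4.20 to 4.36 for Mir449a, 1.23 to 1.27 for Mir34c, 0.84 to 1.20 for Mir34b and 0.05 to 0.09 for Mir34a. The log2 ratio of the family sum was 0.56 without Mir449a, against 1.38 with it, and 1.36 to 1.40 under the other 4 settings (3 scalings and both strands). The family's share was 0.0516% with all reads as the denominator, and 0.0616% to 0.160% with 1 library alone; for Mir449a's share of the family these were 5.80% to 46.4%. The level of Mir34a moved past its SD to 188 CPM with all reads as the denominator and to 377 CPM with both strands. Both moves come from a larger denominator, since Mir34a had 0 counts on the opposite strand.

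The counts of genes past the fold, 31 higher and 21 lower in replicate 2, depend on low counts. They were 78 and 36 without a filter, and 5 and 1 at a mean of 50 CPM or more. A pseudocount of 5 CPM gave 19 and 1, and a limit of 2-fold gave 16 and 8. With all reads as the denominator 3 were lower, where CPM is lower and the filter and pseudocount weigh more. Depth limits Mir449b and Mir449c, which could not be compared. No paired analysis was possible because there is 1 group.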
